A study of Mus musculus with 18 samples.

Results

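The ovarian surface epithelium is the thin sheet of flat to cuboidal cells that covers the ovary and is continuous with the mesothelium of the peritoneum. It opens and heals at each ovulation, and around birth it adds cells to the cortex beneath it, where the primordial follicles form. Its cells keep the marks of a simple epithelium of mesothelial kind: keratin filaments of the simple type, membrane proteins shared with the mesothelium and, in part of the cells, the stem cell receptor Lgr5. The markers followed here were Upk1b, Upk3b, Krt7, Krt8, Krt18, Krt19, Lgr5 and Msln, taken by gene symbol, and they are 8 of the 30172 genes in the expression tables.

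Upk1b encodes a tetraspanin and Upk3b a single-pass membrane protein of the uroplakin family, known from the plaques of the urothelium and, for Upk3b, from mesothelium. Krt7 and Krt8 encode type II keratins, and Krt18 and Krt19 encode type I keratins. A keratin filament needs a partner of each type, and Krt8 with Krt18 is the basic pair of simple epithelia. Lgr5 is a receptor for R-spondins that strengthens Wnt signalling, and Msln is a surface protein anchored in the membranes of mesothelial cells.

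The study asked what a high-methionine diet of the mother, which raises homocysteine (hyperhomocysteinemia, HHcy), does to the ovaries of her daughters. Whole ovaries of wild-type female C57BL/6J mice were taken at postnatal day (Pd) 3, 7 and 21 and sequenced as stranded poly-A RNA. The F1-HHcy daughters came from dams given 3% methionine, by the sample records from 4 weeks before mating through pregnancy and lactation (the article gives a longer time before mating), and the F1-Control daughters from dams on normal chow. The diet named is thus that of the dams, and whether pups ate of it before weaning was not tested. Each of the 6 groups of diet and day had 3 libraries, 18 in all.

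The Pd3 and Pd7 libraries form batch 1 and the Pd21 libraries batch 2, so age and batch cannot be told apart in any comparison of Pd21 with another day. How many pups went into a library, and whether the libraries of a group came from different litters, is not given in the sources used here, so the p-values measure the spread between these libraries. In whole ovaries, fewer cells of a type and less RNA per cell cannot be told apart. The libraries held between 33630641 and 39399281 fragments on genes. At that depth the lowest count behind any marker value was 437 fragments, for Krt7 in F1-HHcy Pd21 replicate 2, so none of the values below rests on a handful of fragments.

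Levels are given as FPKM, fragments scaled by the length of the gene and the depth of the library, which allows levels of different genes to be set side by side. Diet effects are differences of log2(FPKM + 1), F1-HHcy minus F1-Control. A gene was called lower or higher when its unadjusted p from limma was under 0.05 and its log2 fold change was above 0.58 in size, the criterion printed above the study's volcano plots. The adjusted p (Benjamini-Hochberg over all genes tested that day) was read beside it. The smallest p that exact permutation of 3 against 3 libraries can give is 0.1, so permutation was not used gene by gene.

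All 8 markers were present in all 18 libraries. Krt19 was the most abundant, with a mean over the libraries of 137 FPKM and a range of 23.6 to 313 FPKM. Upk3b followed with a mean of 112 FPKM, then Krt18 with 79.8 FPKM and Krt8 with 76.8 FPKM. Krt7 averaged 39.5 FPKM and Upk1b 33.1 FPKM. The lowest means were those of Msln, 16.8 FPKM, and Lgr5, 14.2 FPKM. These means run over all groups, and the order differed within them. By the group means of Pd3, Lgr5 was above Msln in both diets. Upk3b was above Krt19 in all F1-HHcy libraries of Pd7, in 2 of 3 of Pd21 and in replicate 3 of Pd3. The other uroplakins were far below Upk1b and Upk3b: Upk2 did not pass 0.0293 FPKM in any library, Upk3a stayed between 0.0252 and 0.537 FPKM, Upk1a between 0.337 and 2.95 FPKM, and Upk3bl between 0.0336 and 1.40 FPKM. A pattern of Upk1b and Upk3b without Upk2 and Upk3a differs from that of the urothelium, where those plaque genes are known to be made. The libraries carried the defining genes of an ovary as well, with Zp2 at a mean of 425 FPKM for oocytes and Inha at 310 FPKM for granulosa cells.

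**Figure D1:**
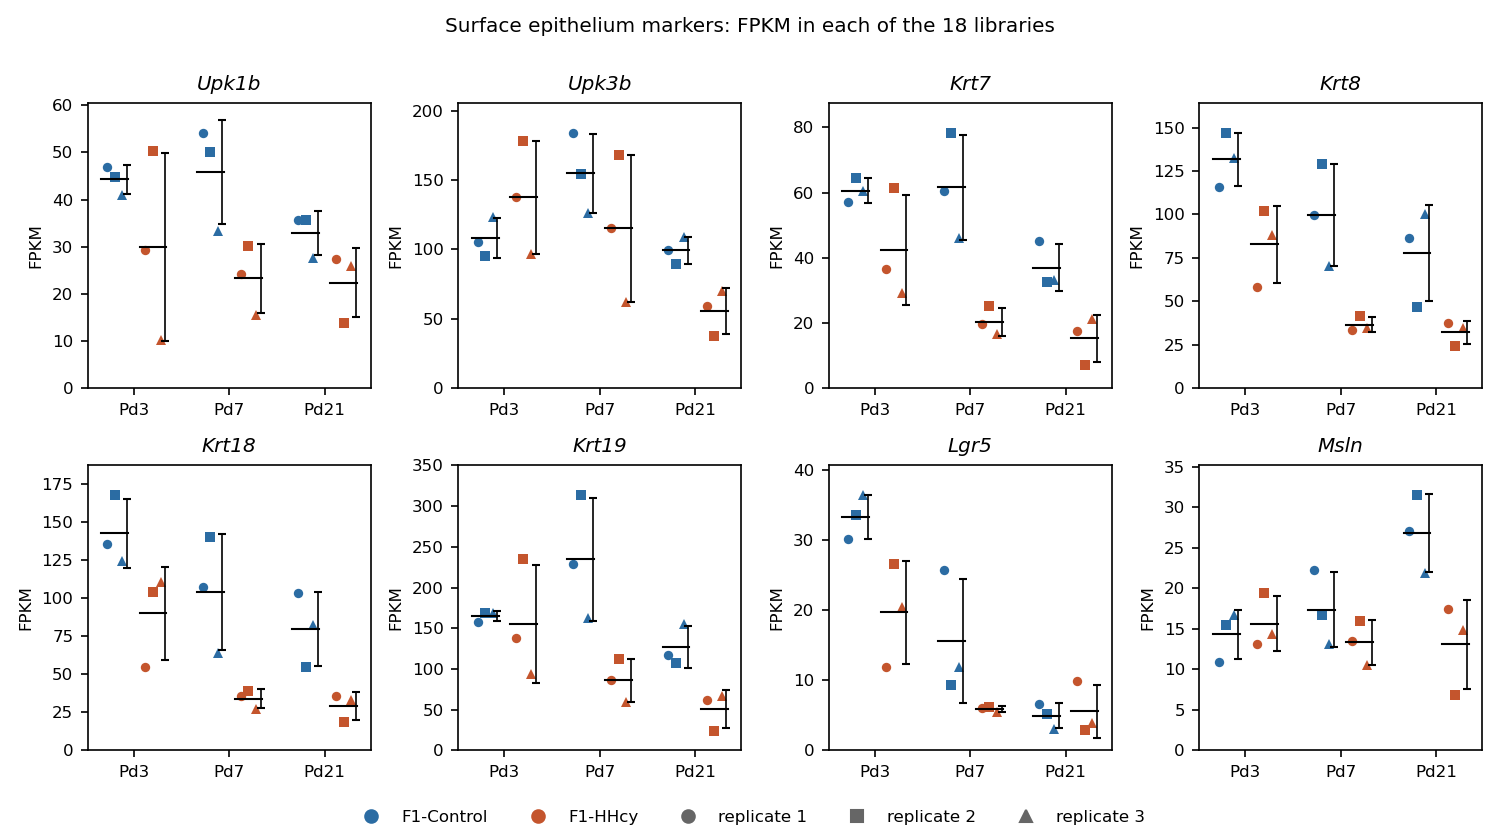
FPKM (y axis, linear from 0) of the 8 markers in each library, by day (x axis), with F1-Control on the left and F1-HHcy on the right of each day; marker shapes give the replicate number, the horizontal line the mean and the bar the SD of 3 libraries. In the Krt7 panel the F1-HHcy libraries of Pd7 reach 25.1 FPKM at most, while the lowest F1-Control library of that day is at 46.2 FPKM.

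The order of the 6 groups differed between the markers. Krt7, Krt8 and Krt18 had 4 upper groups, F1-Control at each day and F1-HHcy at Pd3, and their F1-HHcy groups of Pd7 and Pd21 lay below those without overlap of the neighbouring groups. For Krt18 the means ran from 142 ± 22.3 FPKM (SD, n = 3) in F1-Control Pd3 through 104 ± 38.1 FPKM in F1-Control Pd7, 89.8 ± 30.4 FPKM in F1-HHcy Pd3 and 79.9 ± 24.3 FPKM in F1-Control Pd21 to 33.9 ± 6.10 FPKM in F1-HHcy Pd7 and 29.2 ± 9.06 FPKM in F1-HHcy Pd21. Krt19 was highest in F1-Control Pd7 (235 ± 75.7 FPKM, rank 236 of all genes) and lowest in F1-HHcy Pd21 (50.7 ± 23.7 FPKM, rank 1325), but each group in its order overlapped the next. Upk3b was lowest in F1-HHcy Pd21, with 55.7 ± 16.4 FPKM against 99.4 ± 9.70 FPKM in F1-Control Pd21, the next above it, which it did not overlap. It did overlap F1-HHcy Pd7, whose replicate 3 was at 62.2 FPKM. Lgr5 means fell in the order of the days, from 33.3 ± 3.14 FPKM in F1-Control Pd3 (rank 2110) to 4.94 ± 1.76 FPKM in F1-Control Pd21 (rank 9155). Age and batch cannot be told apart for the Pd21 groups. The means of Msln ran from 13.1 ± 5.52 FPKM in F1-HHcy Pd21 to 26.8 ± 4.78 FPKM in F1-Control Pd21, and its neighbouring groups all overlapped. The plot of FPKM by library shows these orders, and it also shows that single libraries were low or high for many markers together. F1-HHcy Pd21 replicate 2 was the lowest of its group for 8 of 8 markers, and F1-HHcy Pd7 replicate 2 was the highest of its group for 8 of 8.

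The 8 genes lie on 6 chromosomes of the mouse genome (build GRCm38), and 3 of them lie on chromosome 15, in and next to the type II keratin cluster. Krt7 spans chr15:101412403-101427806 on the plus strand. Krt8, at chr15:101996711-102004342 on the minus strand, and Krt18, at chr15:102028216-102032026 on the plus strand, point away from each other across a gap of 23873 bases. Krt19 lies apart from these, at chr11:100140810-100145926 on the minus strand, Upk1b at chr16:38773182-38800203 on the minus strand, and Upk3b at chr5:136038496-136044993 on the plus strand. Lgr5 spans chr10:115450314-115587780 and Msln chr17:25748613-25754378, both on the minus strand.

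Promoter sequences from RefSeq (GRCm38) were found for 4 of the 8 markers, and they are shown here. Krt7, Krt8 and Krt18 were called lower at Pd7 and Pd21, and Upk3b at Pd21. The diet effect on Upk3b was not shown to differ between Pd7 and Pd21 (-0.35, SE 0.42, limma adjusted p = 0.673). Each sequence runs 5′ to 3′ on the strand of the gene, from 250 bases before the annotated start to 50 bases after it. The windows are chr5:136038246-136038545 (plus strand) for Upk3b, chr15:101412153-101412452 (plus strand) for Krt7, chr15:102004293-102004592 (minus strand) for Krt8 and chr15:102027966-102028265 (plus strand) for Krt18. Capitals mark every match, on either strand, to the 6 short motifs named after the sequences: the E-box bound by Snail and Zeb proteins, the GC box, the TATA box, the TEAD and AP-1 sites and the CCAAT box.
Krt7: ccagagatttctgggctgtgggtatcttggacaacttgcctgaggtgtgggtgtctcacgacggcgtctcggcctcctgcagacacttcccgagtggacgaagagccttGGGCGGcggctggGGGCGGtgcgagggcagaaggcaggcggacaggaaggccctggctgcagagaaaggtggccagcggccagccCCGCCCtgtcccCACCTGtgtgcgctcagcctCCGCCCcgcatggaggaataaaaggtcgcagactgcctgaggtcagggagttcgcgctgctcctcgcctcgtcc
Krt8: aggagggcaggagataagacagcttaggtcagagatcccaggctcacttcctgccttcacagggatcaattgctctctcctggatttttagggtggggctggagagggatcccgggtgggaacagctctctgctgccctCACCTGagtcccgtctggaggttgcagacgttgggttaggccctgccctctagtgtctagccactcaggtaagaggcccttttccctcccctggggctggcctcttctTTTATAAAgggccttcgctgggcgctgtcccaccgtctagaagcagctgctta
Krt18: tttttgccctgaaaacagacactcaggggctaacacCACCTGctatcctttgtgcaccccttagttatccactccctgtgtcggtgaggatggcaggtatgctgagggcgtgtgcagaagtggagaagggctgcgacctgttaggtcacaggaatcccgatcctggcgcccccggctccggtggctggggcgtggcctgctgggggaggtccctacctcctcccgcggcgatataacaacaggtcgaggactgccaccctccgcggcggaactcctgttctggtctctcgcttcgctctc
Upk3b: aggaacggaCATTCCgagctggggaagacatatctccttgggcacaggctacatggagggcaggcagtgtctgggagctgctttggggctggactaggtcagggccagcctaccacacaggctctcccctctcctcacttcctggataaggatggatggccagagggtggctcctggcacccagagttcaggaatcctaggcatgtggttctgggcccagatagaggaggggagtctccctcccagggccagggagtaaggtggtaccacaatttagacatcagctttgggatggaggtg
The E-box letters CAGGTG, present in 20.2% of the 32851 promoters of the table, occur 1 time each in Krt7, Krt8 and Krt18, in each case on the strand opposite to the gene, so that the line shows CACCTG, and not in Upk3b. Krt7 holds 4 matches to GGGCGG (35.7% of promoters) and the highest GC content of these promoters, 66.3%, against a median of 52.7% over the table. Krt8 holds 2 matches to TATAAA (13.6% of promoters) that overlap each other, 1 on each strand, and they lie across the annotated start (from bases -1 and -3) and not in front of it. Upk3b holds 1 match to GGAATG (14.7% of promoters), read here as CATTCC. No match to CCAAT (37.4% of promoters) or TGANTCA (7.81% of promoters) lies in any of the 4 windows. No capitals of different motifs overlap. These matches describe letters and no binding was measured.

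At Pd3, when the primordial follicles of the mouse ovary are forming, part of the markers were called for diet. The Krt8 and Krt18 pair and Lgr5 were lower in F1-HHcy ovaries, while Upk3b, Msln and Krt19 had overlapping values in both diets. Krt8 stood at 116, 147 and 133 FPKM in the F1-Control libraries and at 58.3, 102 and 88.1 FPKM in the F1-HHcy libraries. Krt18 stood at 136, 167 and 124 FPKM against 55.0, 104 and 111 FPKM. For both keratins the highest F1-HHcy library lay below the lowest F1-Control library. The log2 fold change was -0.69 for Krt8 (SE 0.21, adjusted p = 0.11) and -0.71 for Krt18 (SE 0.26, adjusted p = 0.174).

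Lgr5 measured 30.1, 33.6 and 36.3 FPKM in F1-Control and 11.9, 26.6 and 20.5 FPKM in F1-HHcy ovaries at Pd3. The groups did not overlap, and replicate 1 of F1-HHcy was the lowest by a wide margin. The log2 fold change of Lgr5 was -0.80 (SE 0.26, adjusted p = 0.130). Krt7 fell just short of the criterion with -0.58 (SE 0.25, unadjusted p = 0.0488, size under the limit before rounding). Its F1-HHcy libraries, at 36.5, 61.4 and 29.1 FPKM, reached into the F1-Control range of 57.0 to 64.4 FPKM. Upk1b gave -0.80 with an SE of 0.48, since its F1-HHcy libraries were at 29.3, 50.2 and 10.3 FPKM, spanning more than the F1-Control values of 47.0, 44.8 and 41.1 FPKM. The tetraspanin gene thus had 1 F1-HHcy library above all controls and another far below them. Krt19 gave -0.19 (SE 0.29), Upk3b 0.31 (SE 0.22) and Msln 0.12 (SE 0.20).

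In all, 3 of the 8 markers were called lower at Pd3, against 4.74% of the 13277 genes tested, and 0 were called higher, against 5.0%. By the adjusted p of limma, 0 of 8 were under 0.05, where 3.07% of all tested genes were. At an unadjusted p under 0.05 there were 4 of 8, against 22.4% of all genes tested, and limma-voom on recovered fragments gave 0 of 8 with an adjusted p under 0.05. The median log2 fold change of the markers was -0.63, against -0.03 over all genes tested. The Pd3 calls leaned on single libraries: without F1-HHcy Pd3 replicate 1 the number of markers called lower was 0, and without replicate 2 it was 5, with Krt7 at -0.87 and Upk1b at -1.29. Krt18 was also no longer called without F1-Control Pd3 replicate 1 (-0.74) or replicate 2 (-0.59), nor Lgr5 without F1-Control Pd3 replicate 3 (-0.73), and Krt7 was called with a pseudocount of 0.1 or with limma-voom (-0.59 in both).

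Genes of other ovarian cells differed between the diets at Pd3 too. At that age 5.0% of all genes tested were called higher and 4.74% lower. Of the granulosa cell genes, 5 of 7 tested were called higher and 0 lower, Inha among them at a log2 difference of 1.78 (SE 0.31, adjusted p = 0.0338). The summed level of that list was 179, 178 and 173 FPKM in F1-Control and 525, 338 and 210.4 FPKM in F1-HHcy libraries, and the top gene was Kitl in the former and Inha in the latter. The oocyte genes had 5 of 10 called higher and 2 lower (5 lower without F1-HHcy Pd3 replicate 3), with sums of 714, 790.3 and 947 FPKM against 1311, 1673 and 1185 FPKM, and Zp2 on top in each. The stroma and theca genes had 5 of 7 called higher, with sums of 672, 899 and 852 FPKM against 1436.5, 1471 and 1147 FPKM, led by Col3a1. Hemoglobin genes took 0.672%, 0.378% and 0.236% of the fragments in F1-Control and between 0.0468% and 0.0672% in F1-HHcy libraries. No gene of the granulosa, oocyte or stroma lists was at 0 in these libraries. The part of these cell types and of blood in the lower Krt8, Krt18 and Lgr5 was not tested.

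At Pd7 6 of the 8 markers were called lower in F1-HHcy ovaries: the 4 keratins, Lgr5 and Upk1b. That count is set beside the 3 of Pd3 without a claim of change, since the test of the difference between these days called 0 of 8. The keratins had the largest estimates, at between 0.345 and 0.384 of the F1-Control level on the FPKM + 1 scale. Upk3b and Msln, the markers shared most with mesothelium, were the ones not called. Krt7 measured 60.4, 78.1 and 46.2 FPKM in F1-Control and 19.6, 25.1 and 16.5 FPKM in F1-HHcy libraries. Krt8 measured 99.4, 129 and 70.3 FPKM against 33.4, 41.7 and 34.8 FPKM. Every F1-HHcy library lay below every F1-Control library for both genes, and the F1-HHcy libraries lay close to each other. The log2 fold changes were -1.54 for Krt7 (SE 0.21, adjusted p = 0.00401) and -1.38 for Krt8 (SE 0.21, adjusted p = 0.00604).

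The type I partners followed the same order at Pd7. Krt18 went from 107, 139.9 and 64.0 FPKM in F1-Control to 35.4, 39.1 and 27.2 FPKM in F1-HHcy libraries, a log2 difference of -1.53 (SE 0.26, adjusted p = 0.00789). Krt19, the most abundant marker in each F1-Control library of that day, went from 228, 313 and 162 FPKM to 86.8, 112 and 59.6 FPKM, a log2 difference of -1.43 (SE 0.28, adjusted p = 0.0121). Upk3b took its place as the top marker in all 3 F1-HHcy libraries of Pd7. Neither keratin overlapped between the diets.

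Lgr5 was at 25.7, 9.28 and 11.8 FPKM in F1-Control and at 6.05, 6.25 and 5.46 FPKM in F1-HHcy ovaries at Pd7. The F1-HHcy libraries were almost level with one another (SD 0.412 FPKM), whereas F1-Control replicate 1 had more than the other F1-Control libraries. The log2 fold change was -1.14 (SE 0.30, adjusted p = 0.0376). Upk1b fell from 54.1, 50.2 and 33.4 FPKM to 24.3, 30.1 and 15.6 FPKM, with a log2 difference of -0.96 (SE 0.25, adjusted p = 0.0364) and no overlap. Upk3b was at 184, 154 and 127 FPKM against 116, 168 and 62.2 FPKM. F1-HHcy replicate 2 lay inside the F1-Control range for Upk3b, and the log2 fold change was -0.52 (SE 0.31, adjusted p = 0.278). For Msln it was -0.35 (SE 0.21, adjusted p = 0.285), with 22.3, 16.7 and 13.1 FPKM against 13.5, 16.0 and 10.5 FPKM.

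The count of markers called lower at Pd7 was 6 of 8, against 7.35% of the 13299 genes tested, and 0 were called higher, against 9.06%. The same 6 had an adjusted p under 0.05, as did 11.9% of all genes tested. The median log2 fold change of the markers was -1.26, against 0.00 at 2 decimals over all genes. Without F1-HHcy Pd7 replicate 2, Upk3b was called as well, at -0.84. Lgr5 ranged from -1.42 to -0.73 when 1 library was left out, and it was called each time.

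Among other cell types at Pd7, granulosa genes had 6 of 9 called higher, with sums of 234, 273 and 548 FPKM in F1-Control against 569, 538 and 920.5 FPKM in F1-HHcy libraries, all led by Inha (log2 fold change 1.40, SE 0.40, adjusted p = 0.0497). Oocyte genes had 7 of 10 called lower and 1 higher, with sums of 1341, 2193 and 1638 FPKM against 916, 772 and 1295 FPKM, led by Zp2. Of the stroma and theca genes 1 of 8 was called higher and 1 lower, with sums of 1625, 1559 and 1517 FPKM against 1589, 1777 and 1183 FPKM, led by Dcn, Col3a1 or Acta2. At that age 9.06% of all genes tested were called higher and 7.35% lower. The granulosa count was 3 without F1-Control Pd7 replicate 1 and 2 without replicate 2. The stroma and theca count called higher was 2 without F1-Control Pd7 replicate 3 or F1-HHcy Pd7 replicate 3. Without F1-HHcy Pd7 replicate 3 the stroma and theca count called lower was 0. No gene of the granulosa, oocyte or stroma lists was at 0 in a Pd7 library. Hemoglobin genes took 0.346%, 0.0947% and 0.0563% of the fragments in F1-Control and 0.0175%, 0.0307% and 0.0261% in F1-HHcy libraries of Pd7, again without overlap. The part of these cells and of blood in the lower levels of the keratins, Lgr5 and Upk1b was not tested.

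At Pd21, near weaning, 7 of the 8 markers were called lower in F1-HHcy ovaries, Msln and Upk3b among them, and Lgr5 was the exception. The largest estimates were again those of the keratins, though no test compared the markers with each other. Krt18 was at 103, 54.6 and 82.3 FPKM in F1-Control and at 35.8, 18.8 and 32.9 FPKM in F1-HHcy libraries. Krt8 was at 86.4, 46.9 and 100.1 FPKM against 37.4, 24.6 and 34.7 FPKM. For both genes F1-Control replicate 2 was the lowest control, and it still lay above the highest F1-HHcy library. Krt18 had a log2 difference of -1.43 (SE 0.29, adjusted p = 0.0491) and Krt8 of -1.20 (SE 0.29, adjusted p = 0.103).

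Krt19 measured 118, 107 and 156 FPKM in F1-Control and 62.0, 23.6 and 66.7 FPKM in F1-HHcy ovaries at Pd21 (log2 fold change -1.42, SE 0.37, adjusted p = 0.140). Krt7 measured 45.2, 32.5 and 33.1 FPKM against 17.5, 7.15 and 21.2 FPKM (log2 fold change -1.33, SE 0.35, adjusted p = 0.149). The diets did not overlap for either keratin, and F1-HHcy replicate 2 was far below the other libraries of its group. The log2 fold change without that library was -0.95 for Krt19 and -0.89 for Krt7.

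The mesothelial markers Upk3b and Msln, not called on the earlier days, were called lower at Pd21 by the unadjusted criterion. Their diet effects are not shown to differ between days. Pd21 minus Pd7 gave -0.35 for Upk3b and -0.71 for Msln (limma adjusted p = 0.673 and 0.326), and Pd21 minus Pd3 was not called either. Pd21 is also a batch of its own. Upk3b was at 99.8, 89.5 and 109 FPKM in F1-Control and at 59.6, 37.65 and 69.7 FPKM in F1-HHcy libraries, a log2 difference of -0.87 (SE 0.23, adjusted p = 0.146). Msln was at 27.0, 31.5 and 21.9 FPKM against 17.5, 6.88 and 14.9 FPKM, a log2 difference of -1.06 (SE 0.31, adjusted p = 0.219). Every F1-HHcy library was below every F1-Control library for both, and without F1-HHcy replicate 2 the value for Msln was -0.68. Upk1b met the criterion by a hair, with 35.7, 35.6 and 27.6 FPKM against 27.4, 13.9 and 25.8 FPKM and a log2 difference of -0.58 (SE 0.25, adjusted p = 0.712). Lgr5, low at this age in both diets, was at 6.58, 5.16 and 3.08 FPKM against 9.93, 2.86 and 3.92 FPKM. Its groups overlapped, with a log2 difference of 0.04 (SE 0.39, adjusted p = 1.00).

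Of the 8 markers, 7 were called lower at Pd21, against 5.06% of the 13350 genes tested, and 0 were called higher, against 0.0824%. By the adjusted p only Krt18 was under 0.05, 1 of 8, against 2.23% of all genes. Limma-voom gave 0 of 8 with an adjusted p under 0.05. The median log2 fold change of the markers was -1.13, against -0.01 over all genes tested. Upk1b lost its call with median-ratio scaling (-0.53), with no filter on low values or all 18 libraries in 1 model (-0.58 in both), and without F1-Control Pd21 replicate 1 (-0.52), replicate 2 (-0.53) or F1-HHcy Pd21 replicate 2 (-0.29).

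**Figure D2:**
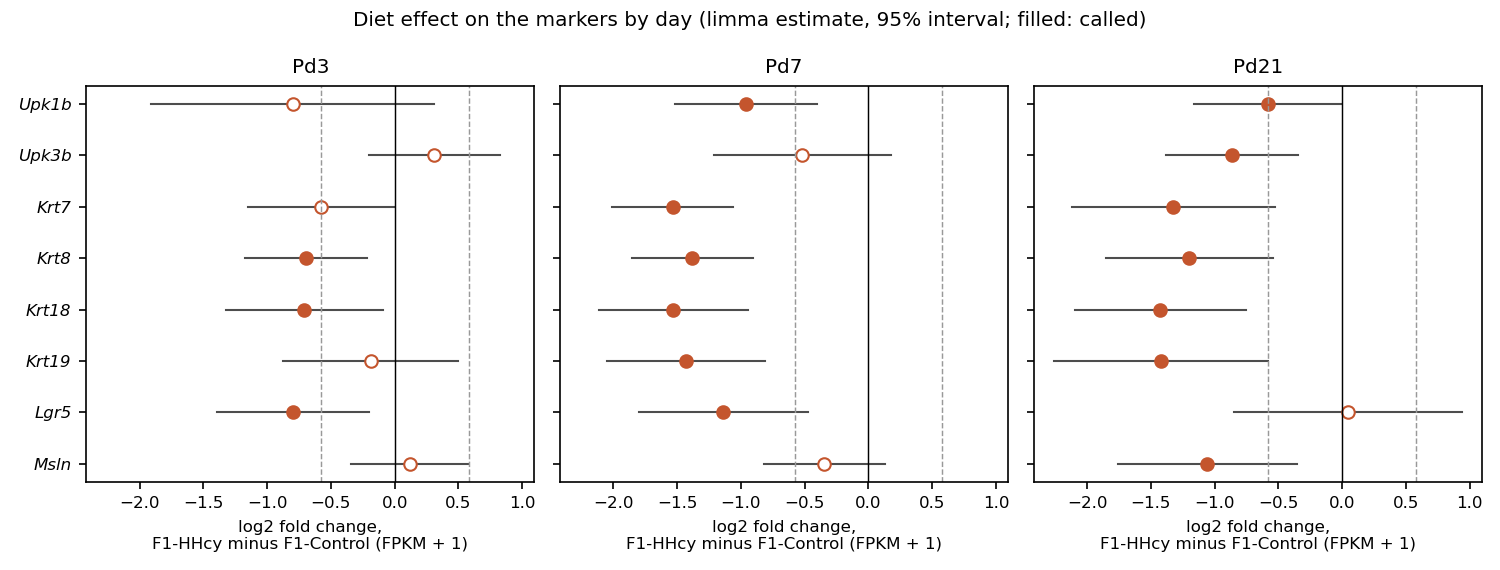
Difference of log2(FPKM + 1), F1-HHcy minus F1-Control (x axis), for each marker (y axis) at Pd3, Pd7 and Pd21; points are limma estimates from 3 against 3 libraries, lines their 95% intervals, filled points were called, and dashed lines stand at 0.58 either side of 0. Filled points number 3, 6 and 7, all left of 0, and Lgr5 is at 0.04 at Pd21.

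Genes of the neighbouring oviduct moved in the same libraries at Pd21. The oviduct epithelium also makes Krt7, Krt8, Krt18 and Krt19, so these values stand beside the keratins. Of the oviduct secretory list 6 of 8 tested genes were called lower and 0 higher, and of the multiciliated list 8 of 9 were called lower and 0 higher. At that age 5.06% of all genes tested were called lower and 0.0824% higher. Foxj1, Dynlrb2, Ccdc153 and Dnah5, and Pax8 and Cldn7 of the oviduct list, passed the filter on low values through the F1-Control libraries alone. Without any 1 F1-Control library the multiciliated count was therefore 4. With no filter it was 9 of 10, and the oviduct count was 6 of 10. The oviduct list summed to 396, 127 and 619.6 FPKM in F1-Control and 98.3, 40.8 and 61.3 FPKM in F1-HHcy libraries, with Ovgp1 on top in the former (216, 37.5 and 365 FPKM) and Emx2 in the latter. The multiciliated list summed to 841, 287 and 463 FPKM against 122, 89.9 and 115 FPKM. Foxj1, the regulator of motile cilia, was at 99.1, 20.4 and 49.7 FPKM in F1-Control and at 0.371, 0.441 and 0.248 FPKM in F1-HHcy libraries. The log2 fold change was -6.13 for Ovgp1 (SE 0.73, adjusted p = 0.00541). For Foxj1, which passed the filter through the F1-Control libraries alone, it was -5.14, given as a description. Epcam, a gene of epithelia in general, fell by 1.38 (adjusted p = 0.154). F1-Control replicate 2 was lowest of the controls for Ovgp1 and Foxj1. Of the 8 surface markers it was lowest for 5, the 4 keratins and Upk3b, and highest for 1, Msln.

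At Pd3 and Pd7 Foxj1 and Ovgp1 were low in both diets. Foxj1 stayed between 0.0646 and 2.13 FPKM. The multiciliated list then summed to between 48.6 and 78.2 FPKM per library, mostly Ccno. Ovgp1 was called higher at Pd7, which came from 12.1 FPKM in F1-HHcy Pd7 replicate 1 with at most 1.91 FPKM in the other libraries of that day, and the call was lost in 8 of the 12 alternatives, among them without that library and with limma-voom. At Pd7 Foxj1 was at 0.740, 0.635 and 0.861 FPKM in F1-Control and at 1.21, 0.0646 and 0.156 FPKM in F1-HHcy libraries. The shares of all genes tested called lower and higher were 4.74% and 5.0% at Pd3, and 7.35% and 9.06% at Pd7. Of the oviduct list, 0 of 8 genes were called at Pd3 in either direction, and at Pd7 1 of 7 was called higher and 2 lower, Epcam at -1.57 (adjusted p = 0.00646) and Pax8 at -1.04. The count called lower at Pd7 was 4 with a pseudocount of 0.1 or limma-voom, and at Pd3 it was up to 2 and the count called higher up to 1 under some alternatives. Of the multiciliated list, 0 of 6 were called at Pd3 (1 higher without F1-HHcy Pd3 replicate 2 or replicate 3), and at Pd7 1 of 6 was called higher, Tppp3, and 1 lower, Dynlrb2. The lower call was lost with no filter, with all 18 libraries in 1 model, and without F1-Control Pd7 replicate 1, F1-Control Pd7 replicate 2 or F1-HHcy Pd7 replicate 2. The granulosa and oocyte lists had 0 of 9 and 0 of 10 genes called at Pd21, and of the stroma and theca list 1 of 8 was called lower, Dcn, a count that was 0 to 4 with 1 library left out. Under some alternatives 1 granulosa gene or 1 oocyte gene was called higher. Among all genes tested at Pd21, 5.06% were called lower and 0.0824% higher. Up to 1 gene of each oviduct list was at 0 in a Pd3 or Pd21 library, and up to 2 were in a Pd7 library. The part of oviduct tissue in the lower keratins at Pd3, Pd7 or Pd21 was not tested.

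**Figure D3:**
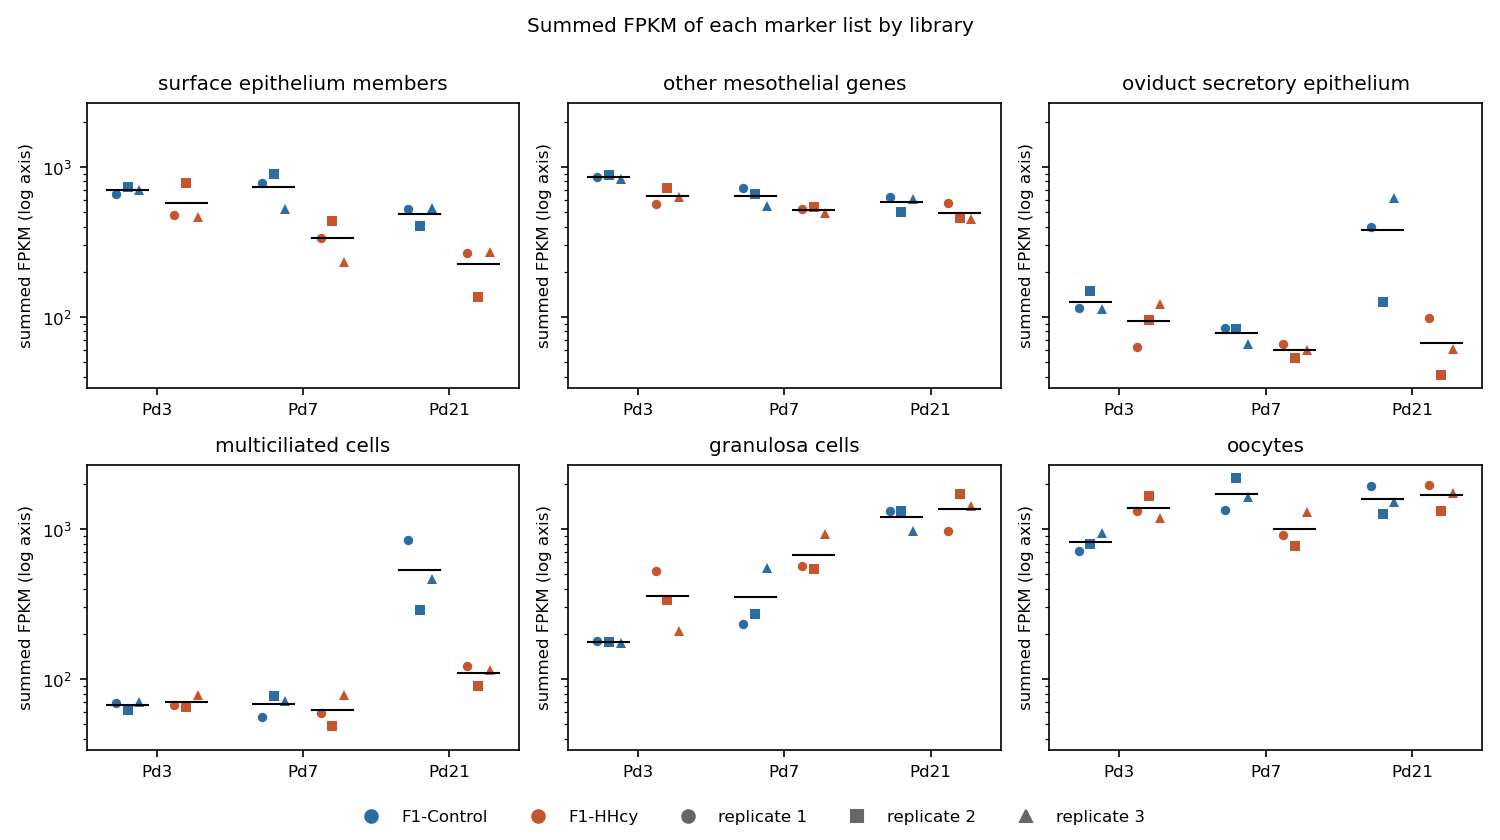
Summed FPKM (y axis, log scale) of 6 lists of marker genes in each library, by day (x axis), F1-Control left and F1-HHcy right; shapes give the replicate number and lines the group mean of 3 libraries. The multiciliated sums lie between 48.6 and 78.2 FPKM at Pd3 and Pd7 and reach 841 FPKM in F1-Control at Pd21, while the surface markers span 135 to 891 FPKM over all libraries.

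As a sum, the 8 surface markers gave 659.8, 736 and 703 FPKM in F1-Control Pd3 and 480.3, 776 and 463 FPKM in F1-HHcy Pd3. At Pd7 the sums were 781, 891 and 527 FPKM against 335, 438 and 232 FPKM. At Pd21 they were 521, 403 and 533 FPKM against 267, 135 and 269.8 FPKM. The groups were apart at Pd7 and Pd21, and at Pd3 F1-HHcy replicate 2 lay above all controls. The plot of summed FPKM shows the surface markers and the oviduct lists on the same scale.

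Pd3 and Pd7 share batch 1, so the markers can be followed from one day to the next within each diet. In F1-Control ovaries Lgr5 was the only marker called, going from 30.1, 33.6 and 36.3 FPKM to 25.7, 9.28 and 11.8 FPKM. All Pd7 libraries were below all Pd3 libraries, and the log2 fold change, Pd7 minus Pd3, was -1.17 (SE 0.31, adjusted p = 0.0338). The keratins kept overlapping ranges in F1-Control, with log2 fold changes of -0.01 for Krt7, -0.44 for Krt8, -0.51 for Krt18 and 0.45 for Krt19. Upk3b was higher in every Pd7 than in every Pd3 control library but was not called, at 0.51 (SE 0.31, adjusted p = 0.275).

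In F1-HHcy ovaries 5 markers were lower at Pd7 than at Pd3: Krt7, Krt8, Krt18, Krt19 and Lgr5. Krt8 went from 58.3, 102 and 88.1 FPKM to 33.4, 41.7 and 34.8 FPKM, a log2 difference of -1.12 (SE 0.23, adjusted p = 0.0256). Lgr5 went from 11.9, 26.6 and 20.5 FPKM to 6.05, 6.25 and 5.46 FPKM, a log2 difference of -1.51 (SE 0.31, adjusted p = 0.0267). Neither gene overlapped between the days. For Krt18 the log2 fold change was -1.33 (SE 0.29, adjusted p = 0.0311), for Krt7 -0.97 (SE 0.25, adjusted p = 0.0490) and for Krt19 -0.79 (SE 0.32, adjusted p = 0.147). Krt19 overlapped between the days, and its call was lost without F1-HHcy Pd3 replicate 2 (-0.44) or F1-HHcy Pd7 replicate 3 (-0.55). Upk1b, Upk3b and Msln gave -0.14, -0.32 and -0.21, none of them called.

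The counts were 1 of 8 lower in F1-Control, against 7.28% of the 13998 genes tested, and 5 of 8 lower in F1-HHcy, against 6.19%. None was called higher in either diet, against 7.08% and 5.97% of genes. By the adjusted p the counts were 1 of 8, against 12.6% of genes, and 4 of 8, against 4.44%, and by limma-voom 1 of 8 and 3 of 8, with Krt7 in F1-HHcy at an adjusted p of 0.0572. Without F1-Control Pd7 replicate 2, which had the highest keratin levels of its group, Krt8 (-0.64) and Krt18 (-0.76) were called lower in F1-Control as well. Other cell types moved between these days too. In F1-Control 7 of 9 granulosa, 5 of 10 oocyte and 5 of 8 stroma and theca genes were called higher. Lower calls there numbered 1, 2 and 0. In F1-HHcy 5, 1 and 2 genes of these lists were called higher, and 0, 6 and 0 lower. Their part in the marker changes was not tested. Whether the courses of the markers differ between the diets is the same contrast as the difference of the diet effect between Pd7 and Pd3, which was not called for any marker.

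That difference, the diet effect at Pd7 minus that at Pd3, was negative for 8 of the 8 markers, as it was for 7196 of the 14607 genes tested. It was largest for Krt19, at -1.24 (SE 0.52, adjusted p = 0.324), then for Krt7 at -0.96 (SE 0.45, adjusted p = 0.360), Upk3b at -0.83 (SE 0.42, adjusted p = 0.392) and Krt18 at -0.82 (SE 0.45, adjusted p = 0.418). Lgr5 gave -0.34 and Upk1b -0.16, and these 2 turned positive with 1 library left out, Lgr5 without F1-Control Pd7 replicate 1 (0.06) and Upk1b without F1-HHcy Pd3 replicate 2 (0.33) or F1-HHcy Pd7 replicate 3 (0.09). By limma 0 of 8 markers had an adjusted p under 0.05, against 0.411% of the 14607 genes tested, 2 of 8 had an unadjusted p under 0.05, against 13.8% of genes, and limma-voom gave 0 of 8. Krt19, called at Pd7 and not at Pd3, is therefore not shown to respond differently on these days.

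Between Pd21 and Pd3, where age and batch cannot be told apart, the mesothelial markers had the lowest adjusted p. Msln gave -1.18 (SE 0.39, adjusted p = 0.116) and Upk3b -1.17 (SE 0.42, adjusted p = 0.155), as both had positive log2 fold changes at Pd3 and negative ones at Pd21. Krt19 gave -1.23 (SE 0.52, adjusted p = 0.242). Again 0 of 8 passed, against 4.59% of genes, with 3 of 8 at an unadjusted p under 0.05, against 16.1% of genes, and 0 of 8 by limma-voom. Without F1-HHcy Pd21 replicate 1, which had the highest Msln of its group, the value for Msln was -1.42 with an adjusted p of 0.0486, within a range of -1.42 to -0.80 when 1 library was left out.

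Between Pd21 and Pd7 the diet effects on the keratins lay side by side, with differences of 0.01 for Krt19, 0.10 for Krt18, 0.18 for Krt8 and 0.21 for Krt7. Their SEs of 0.38 to 0.52 leave room for differences in either direction. Lgr5 had the largest difference, 1.18 (SE 0.53, adjusted p = 0.236), as its diet effect was -1.14 at Pd7 and 0.04 at Pd21. The count was 0 of 8, against 3.89% of genes, with 1 of 8, Lgr5, at an unadjusted p under 0.05, against 19.4% of genes, and 0 of 8 by limma-voom.

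Set against one another within a library, where sequencing depth cancels out, some of the markers differed between the diets and others did not. The 9 ratios were formed after the marker values had been seen and are given as descriptions, with no test. Krt19 to Upk3b stood at 1.5, 1.78 and 1.365 in F1-Control Pd3 and at 1.01, 1.32 and 0.968 in F1-HHcy Pd3. The same ratio was 1.24, 2.03 and 1.28 against 0.751, 0.666 and 0.959 at Pd7, and 1.18, 1.20 and 1.43 against 1.04, 0.626 and 0.956 at Pd21. On each day every F1-HHcy library thus had less Krt19 per Upk3b than every F1-Control library, Pd3 included, where Krt19 itself was not called. Krt7 to Upk3b was apart at Pd3, with 0.541, 0.679 and 0.489 against 0.266, 0.345 and 0.301, and at Pd7, with 0.329, 0.507 and 0.365 against 0.170, 0.149 and 0.265. At Pd21 that ratio met at the edge, with 0.453, 0.363 and 0.304 against 0.294, 0.190 and 0.304.

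Upk1b to Upk3b, the ratio of the uroplakin genes, was 0.446, 0.472 and 0.332 in F1-Control and 0.213, 0.282 and 0.106 in F1-HHcy libraries at Pd3. At Pd7 it was 0.295, 0.325 and 0.264 against 0.211, 0.179 and 0.251, again apart. At Pd21 it was 0.358, 0.398 and 0.253 against 0.461, 0.370 and 0.370, with the ranges overlapping. In contrast, the keratin partners Krt8 and Krt18 stayed close to 1 to 1 throughout, between 0.797 and 1.30 in all 18 libraries. Their ratio overlapped between the diets on each day, with 0.854, 0.877 and 1.07 against 1.06, 0.980 and 0.797 at Pd3, 0.929, 0.924 and 1.10 against 0.944, 1.07 and 1.28 at Pd7, and 0.840, 0.860 and 1.22 against 1.04, 1.30 and 1.06 at Pd21.

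Of the other ratios to Upk3b, that of Krt8 was apart at Pd3, with 1.10, 1.54 and 1.07 against 0.424, 0.571 and 0.914, but overlapped at Pd7, where F1-HHcy replicate 3 at 0.560 passed the lowest F1-Control library at 0.542, and at Pd21. Krt18 to Upk3b overlapped at Pd3, where F1-HHcy replicate 3 at 1.15 passed F1-Control replicate 3 at 1.00, and was apart at Pd7, with 0.583, 0.907 and 0.506 against 0.306, 0.233 and 0.436. At Pd21 it was apart by little, with 0.610 the lowest in F1-Control and 0.601 the highest in F1-HHcy. Msln to Upk3b and Krt19 to Krt18 overlapped on each day. Krt7 to Krt8 overlapped at Pd3 and Pd21 and was apart by a hair at Pd7, with 0.605 the lowest in F1-Control and 0.602 the highest in F1-HHcy. Of the 6 markers set against Upk3b, Krt19 was thus apart on each day. Krt7 missed this at Pd21 by 0.3037 in F1-Control against 0.3040 in F1-HHcy. The share of all genes whose ratio to Upk3b is likewise apart was not counted, so this is not shown to be particular to Krt19.

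**Figure D4:**
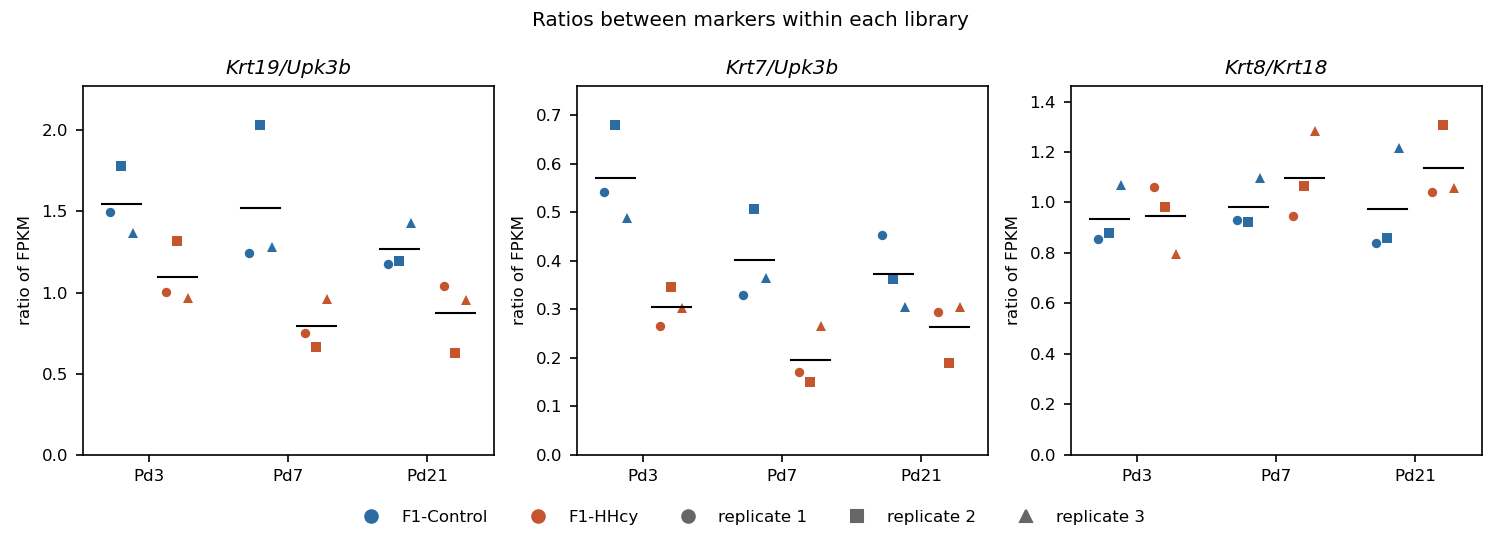
Ratio of FPKM (y axis, linear from 0) of Krt19 to Upk3b, Krt7 to Upk3b and Krt8 to Krt18 within each library, by day (x axis), F1-Control left and F1-HHcy right; shapes give the replicate number and lines the mean of 3 libraries. Krt19 to Upk3b is lower in each F1-HHcy library than in each F1-Control library of its day, and Krt8 to Krt18 lies between 0.797 and 1.30.

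Across the 18 libraries, the genes whose log2(FPKM + 1) ran most closely with a marker were in part other markers. Pearson's r was compared over 13430 genes and is a description, since the libraries share diets, days and batches. Krt8 ran with Krt18 (r = 0.981 over the 18 libraries, 0.984 over the 12 of batch 1, 0.964 over the 6 of batch 2) and Epcam (0.973, 0.972 and 0.971). The next for Krt8 were Nfe2l3 (0.955), Kif9 (0.950) and 3100003L05Rik (0.950). Krt19 ran most closely with Krt7 (0.957, 0.940 and 0.956), then with Fah (0.920), Loxl1 (0.911), Spon2 (0.911) and Postn (0.909). Between the other marker keratins r over the 18 libraries was lower. It was 0.920 for Krt7 and Krt18 (0.888 in batch 1, 0.947 in batch 2) and 0.914 for Krt7 and Krt8 (0.925 and 0.855). For Krt19 it was 0.844 with Krt8 (0.768 and 0.899) and 0.836 with Krt18 (0.737 and 0.929).

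Upk3b ran with Spon2 (r = 0.882 over 18 libraries, 0.805 in batch 1, 0.867 in batch 2) and Krt19 (0.881, 0.709 and 0.992). Next to it came Eln (0.878, 0.753 and 0.875), Cpa3 (0.875, 0.859 and 0.709) and Ppl (0.872, 0.682 and 0.932). Lgr5 shared none of these. Its nearest genes were Necab3 (0.974, 0.972 and 0.957), Lhx9 (0.969, 0.968 and 0.823) and Gm41673 (0.967, 0.977 and 0.764). Prss53 (0.965, 0.961 and 0.843) and Gxylt2 (0.964, 0.983 and 0.621) came next. Lhx9 encodes a transcription factor needed for the gonad to form. No other marker was among the 5 nearest genes of Lgr5.

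Other genes of mesothelium and surface epithelium were read beside the 8 markers. Of 15 listed, 14 were tested each day, and 2 were called lower at Pd3, 3 at Pd7 and 5 at Pd21, with 0 higher on any day. Rspo1, called at Pd3 and Pd7, is also on the Lgr5 pathway list and is counted in both. The shares of all genes tested called lower on these days were 4.74%, 7.35% and 5.06%. The lower count was 1 at Pd3 without F1-HHcy Pd3 replicate 1, 5 at Pd7 without F1-Control Pd7 replicate 3 and 9 at Pd21 without F1-HHcy Pd21 replicate 1. The higher count was 1 at Pd3 without F1-HHcy Pd3 replicate 3, and 1 at Pd7 without F1-Control Pd7 replicate 2. The median log2 fold change of the listed genes was -0.04 at Pd3, -0.08 at Pd7 and -0.47 at Pd21. Aldh1a1, the most abundant of them on average, was at 271, 261 and 240 FPKM in F1-Control Pd3 and at 124, 138 and 166 FPKM in F1-HHcy Pd3 (log2 fold change -0.86, SE 0.13, adjusted p = 0.0279), the other gene called that day being Rspo1. At Pd7 it was not called, with 131, 166 and 95.7 FPKM against 170, 159 and 186 FPKM. The lowest p of the list at Pd7 was that of Aldh1a2, named after its values were seen, with 128 ± 18.8 FPKM in F1-Control and 48.5 ± 11.8 FPKM in F1-HHcy ovaries and no overlap (log2 fold change -1.40, SE 0.20, adjusted p = 0.00403). Ezr, which encodes ezrin, the linker of microvilli to actin, was called at Pd7 (-0.79, adjusted p = 0.0153) and Pd21 (-0.83, adjusted p = 0.0812), as the 4 marker keratins were. The others called at Pd21 were Cdh1 (-1.10), Nkain4 (-0.99), Lrrn4 (-0.80) and Cldn15 (-0.70). Pdpn and Wt1 were not called on any day. The list summed to 858, 888 and 825 FPKM in F1-Control against 569, 719 and 629.5 FPKM in F1-HHcy libraries at Pd3, to 718, 658 and 551 FPKM against 521, 539 and 489.8 FPKM at Pd7, and to 628, 499 and 611 FPKM against 579, 455 and 449.7 FPKM at Pd21.

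The other keratins were sparse beside the 4 marker keratins. Of 15 listed, 14 were in the tables and 3 or 4 were tested on each day, and their sum per library lay between 7.37 and 33.3 FPKM. At Pd7 4 of 4 tested were called lower, of which Krt14 and Krt15 passed the filter on low values through the F1-Control libraries alone, so that without any 1 of these the count was 2. With no filter it was 5 of the 13 that had any fragments that day. Of all genes tested, 7.35% were called lower at Pd7. Krt79 was at 15.3, 21.9 and 11.7 FPKM in F1-Control and 4.63, 4.58 and 5.10 FPKM in F1-HHcy libraries (log2 fold change -1.54, SE 0.21, adjusted p = 0.00336). Krt20 fell by 1.10 (adjusted p = 0.0159), and Krt14 and Krt15 are named after their values were seen. At Pd3 0 of 3 (1 lower without F1-HHcy Pd3 replicate 2 or replicate 3) and at Pd21 1 of 4 were called lower, against 4.74% and 5.06% of all genes. The gene called at Pd21 was Krt80, at -1.22, given as a description. Krt80 too passed the filter through the F1-Control libraries alone, and without any 1 of these the count was 0 (1 of 14 with no filter). Krt12 was among the most abundant of the list but averaged 1.31 FPKM. Of the other uroplakins 1 of 4 passed the filter on low values on each day, Upk1a at Pd3 and Pd7 and Upk3bl at Pd21, and 0 were called.

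Lgr5 acts with R-spondins, the Znrf3 and Rnf43 ligases and Wnt receptors. Of that list of 17 genes, 15 were tested at Pd3, with 3 called lower and 1 higher, 16 at Pd7, with 2 lower and 2 higher, and 15 at Pd21, with 1 lower and 0 higher. Of all genes tested, 4.74%, 7.35% and 5.06% were called lower and 5.0%, 9.06% and 0.0824% higher on these days. With 1 library left out, the genes called lower ranged from 0 to 5 at Pd3, and they were 4 at Pd7 without F1-Control Pd7 replicate 2 and 3 at Pd21 without F1-HHcy Pd21 replicate 1. The genes called higher were 2 at Pd3 under some alternatives, and 1 at Pd7 without F1-Control Pd7 replicate 2. Rspo1, an R-spondin made by the ovary's supporting and surface cells, was at 58.1, 63.4 and 61.2 FPKM in F1-Control and at 25.5, 44.6 and 43.2 FPKM in F1-HHcy libraries at Pd3. It was at 45.0, 33.8 and 23.0 FPKM against 16.6, 19.8 and 11.2 FPKM at Pd7. The groups were apart on both days, as those of Lgr5 were. The log2 fold change of Rspo1 was -0.72 at Pd3 (SE 0.21, adjusted p = 0.103) and -1.03 at Pd7 (SE 0.26, adjusted p = 0.0325). Without F1-HHcy Pd3 replicate 1, the library lowest in Lgr5, the value of Rspo1 at Pd3 was -0.46 and no longer called. At Pd21, where Lgr5 was low in both diets, Rspo3 was the gene called, with 3.78, 5.52 and 4.92 FPKM against 0.995, 0.768 and 2.88 FPKM (log2 fold change -1.25, SE 0.30, adjusted p = 0.104). Wnt4 and Nkd1, the other abundant genes of the list, were not called on any day. The remaining calls, named after their values were seen, were Lgr4 and Axin2 lower and Rspo2 higher at Pd3, and Sp5 lower and Lgr6 and Lrp5 higher at Pd7. From Pd3 to Pd7 the list had 6 of 16 genes called lower and 2 higher in each diet, beside the lower Lgr5. Of all genes tested, 7.28% were called lower and 7.08% higher in F1-Control, and 6.19% and 5.97% in F1-HHcy. The lower count in F1-HHcy was 3 without F1-HHcy Pd3 replicate 3, and the higher count was 1 under some alternatives in either diet.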

How the data were processed

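RNA of whole F1 ovaries was sequenced in 18 libraries, 3 per diet and day. According to the submitters' processing notes, reads were checked with FastQC 0.11.9, trimmed with Trimmomatic 0.39, aligned to GRCm38 with STAR 2.7.9a and counted with featureCounts 2.0.1, and DESeq2 1.36.0 was the submitters' tool for testing. The values the authors deposited carry no unit and were read as FPKM, because whole gene lengths and library totals turn 99.996% of 27294 genes (those with a value above 0 in 3 libraries or more) into whole fragments within 0.01 fragment. The count tables that the submitters' tool would need were not among the files used.

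Values were put on the scale log2(FPKM + 1), and genes that reached 1 FPKM in 3 or more libraries of a fit were tested with limma 3.58.1 (variance trend) in R 4.3.3, with Benjamini-Hochberg adjustment over all genes tested. Each day was fitted on its 6 libraries, the ages Pd3 and Pd7 on 12 and the differences of the diet effect on 18, the last called at an adjusted p under 0.05. Python 3.11.15 was used for tables, likeness and promoters (with pandas 2.3.3 and numpy 2.4.6) and for figures (with matplotlib 3.10.9). The scripts were tested on simulated data.

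Named genes were the 8 markers, the 3 genes with the highest mean of each other list, every listed gene called at Pd21 and the 5 genes most like Upk3b, Lgr5, Krt19 and Krt8. The markers and lists were chosen with earlier results of these data known. Alternatives were a pseudocount of 0.1, no filter, replicate number as a block, median-ratio scaling, limma-voom on recovered fragments, all 18 libraries in 1 model, and each library left out in turn. Ages were not tested against Pd21, which is a batch of its own.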

Additional observations from a re-analysis of the deposited data

Results flagged for a closer look

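The diet effect itself differed between days, by the interaction test of limma at an adjusted p under 0.05, for none of the 8 surface markers but for other genes named by the rule. Each value is the difference of the log2 fold change between the days named. From Pd3 to Pd21 it was negative for the ciliated genes Ccdc153 (-6.47), Cfap126 (-2.41), Dnah5 (-2.06), Dynlrb2 (-6.15), Foxj1 (-5.36), Rsph1 (-3.02), Tekt1 (-3.09) and Tppp3 (-3.88). The same held for the oviduct genes Cldn3 (-3.33), Cldn7 (-2.69), Ovgp1 (-6.09), Pax8 (-2.22) and Wfdc2 (-3.49). The other named genes were Amh (-3.68), Dcn (-1.51), Krt80 (-1.26) and Rspo3 (-1.56). Dnah5 and Krt80 passed the filter on low values through the F1-Control Pd21 libraries alone, so their values are given as descriptions.

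From Pd7 to Pd21 the ciliated genes again had negative differences, Ccdc153 (-5.65), Cfap126 (-2.31), Dnah5 (-2.09), Dynlrb2 (-5.28), Foxj1 (-4.82), Rsph1 (-2.69), Tekt1 (-2.88) and Tppp3 (-4.23). So had the oviduct genes Cldn3 (-2.17), Cldn7 (-2.75) and Ovgp1 (-7.35). Of the other keratins, Krt80 had a negative difference and Krt79 a positive one, Krt79 (1.82) and Krt80 (-1.20). Over the whole lists, genes not named here were called as well: 1 other stroma and theca gene lower and 1 oocyte gene higher from Pd3 to Pd21, and 2 oocyte genes higher from Pd7 to Pd21. The values of Krt80 and Dnah5 are descriptions here too, and these genes were not tested without any 1 F1-Control Pd21 library. Their differences were called with no filter too, but with limma-voom that of Krt80 was not, nor that of Dnah5 from Pd3 to Pd21. In these comparisons age and batch cannot be told apart. From Pd3 to Pd7, both in batch 1, the differences were Dcn (-1.71), Zp2 (-2.31) and Zp3 (-2.14), and those calls were lost under several alternatives, as were those of Rspo3, Wfdc2, Pax8, Dcn and Amh from Pd3 to Pd21 and of Cldn3 from Pd7 to Pd21.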

How the results depend on the processing

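Of 480 alternative values for the markers by diet and age, 443 gave the same call and direction, as did 387 of 408 for the differences between days. No marker was called in those differences, so the same there meant not called and of the same sign. Part of the values by diet and age were likewise for markers not called. With 1 library left out, the markers called lower ranged from 0 to 5 at Pd3 (main value 3) and from 1 to 3 from Pd3 to Pd7 in F1-Control (main value 1). The count for Pd21 minus Pd3 ranged from 0 to 1 (main value 0). The cause was not tested.

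Values near 0 changed sign. Krt7 from Pd3 to Pd7 in F1-Control was 0.059 with median-ratio scaling. Krt19 for Pd21 minus Pd7 was -0.0016 with a pseudocount of 0.1 and -0.0023 with limma-voom. With 1 library left out, the log2 fold change at Pd3 ranged from -0.53 to 0.13 for Krt19 and from -0.055 to 0.23 for Msln, and that of Lgr5 at Pd21 from -0.40 to 0.35. From Pd3 to Pd7 in F1-Control, Krt7 ranged from -0.19 to 0.18 and Upk1b from -0.11 to 0.23. In F1-HHcy, Upk1b ranged from -0.74 to 0.35 and Upk3b from -0.65 to 0.063. For Pd7 minus Pd3, Upk1b ranged from -0.76 to 0.33 and Lgr5 from -0.65 to 0.064, and for Pd21 minus Pd3, Upk1b from -0.39 to 0.71. For Pd21 minus Pd7 the ranges were -0.15 to 0.41 for Krt18, -0.25 to 0.48 for Krt19, -0.14 to 0.41 for Krt8 and -0.074 to 0.65 for Krt7.

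Deviations from the group mean, set between F1-Control and F1-HHcy libraries of the same number, had correlations of -0.15, -0.14 and -0.20 on day 3. On day 7 these were 0.060, -0.11 and 0.087, and on day 21 they were -0.16, -0.12 and -0.34. Such correlations cannot decide whether the numbers pair samples, as each group had 3 libraries. With the replicate number as a block, the markers called lower were again 3, 6 and 7 at Pd3, Pd7 and Pd21, and no other marker call changed.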
